A study of Mus musculus with 2 samples.

Results

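The genes of the aryl hydrocarbon receptor complex and of its feedback were examined in nonparenchymal cells of the mouse liver, in 1 library from a PCB126-exposed mouse and 1 library from a Control mouse. The 5 members were the receptor gene Ahr, its dimer partner Arnt, the co-chaperone gene Ptges3, and the feedback repressors Tiparp and Ahrr. They were taken by name, and all 5 were found among the 34244 genes of the count tables. Both mice were C57/BL6, with no other allele named. The exposed mouse received PCB126, a polychlorinated biphenyl of the dioxin-like kind and a ligand of the receptor, at 20 µg/kg/day, and the Control mouse received peanut oil, although its treatment label reads "Untreated". The exposure ran over 5 weeks, the mice then fasted for 12 hours, and the protocol names a single gavage beside a dose stated per day. The age label of both mice was postnatal day 21, without the time point to which it refers. Each library came from 1 liver, so mouse and treatment cannot be told apart, no test between groups was possible, and every interval given here covers counting error only.

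The receptor is a ligand-activated transcription factor of the bHLH-PAS family. Without ligand it is held in the cytosol by a chaperone complex that holds HSP90 and the co-chaperone p23, which Ptges3 encodes. With ligand it moves to the nucleus, pairs with ARNT and binds DNA at a short core, GCGTG, in enhancers and promoters of genes such as Cyp1a1. Among its targets are 2 that act back on it. Ahrr encodes a repressor that lacks a ligand-binding domain and competes for ARNT, and Tiparp encodes a mono-ADP-ribosyltransferase that modifies the receptor and promotes its loss. Dioxin-like compounds are best known in liver for inducing cytochrome P450 genes in hepatocytes, which were spun out of these preparations (no cell passed the hepatocyte gate), and endothelial cells are known to respond as well.

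To show where the receptor core lies at the feedback genes, the RefSeq promoters of Tiparp and Ahrr are set beside that of the response gene Cyp1a1. Each window runs from 250 bases before to 50 bases after the annotated start, 5′ to 3′ on the gene's strand, in build GRCm38.p6. The windows were chr3:65528197-65528496 on the plus strand for Tiparp, chr13:74292282-74292581 on the minus strand for Ahrr and chr9:57697363-57697662 on the plus strand for Cyp1a1. Capitals mark GCGTG, or CACGC where the core lies on the other strand.
Tiparp: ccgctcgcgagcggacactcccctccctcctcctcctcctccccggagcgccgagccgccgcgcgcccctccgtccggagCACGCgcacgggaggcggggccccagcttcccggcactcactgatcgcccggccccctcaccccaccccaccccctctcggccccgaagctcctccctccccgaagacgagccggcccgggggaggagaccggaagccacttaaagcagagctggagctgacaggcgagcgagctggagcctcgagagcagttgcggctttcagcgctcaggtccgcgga
Ahrr: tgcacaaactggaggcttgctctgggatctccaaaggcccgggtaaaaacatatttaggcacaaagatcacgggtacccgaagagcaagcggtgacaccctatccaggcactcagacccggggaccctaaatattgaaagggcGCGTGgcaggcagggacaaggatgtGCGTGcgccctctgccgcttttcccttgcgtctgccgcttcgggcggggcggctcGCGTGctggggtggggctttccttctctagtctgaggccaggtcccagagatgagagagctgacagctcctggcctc
Cyp1a1: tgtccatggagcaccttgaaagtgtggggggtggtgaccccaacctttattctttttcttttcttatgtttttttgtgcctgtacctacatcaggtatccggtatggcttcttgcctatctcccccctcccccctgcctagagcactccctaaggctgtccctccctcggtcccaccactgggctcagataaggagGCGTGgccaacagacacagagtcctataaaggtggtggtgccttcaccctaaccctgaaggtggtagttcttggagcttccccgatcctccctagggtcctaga
The Ahrr window held the core at 3 places, all on the gene's strand. The Tiparp window held it at 1 place, on the other strand, and the Cyp1a1 window at 1 place, on the gene's own strand. Of the other members, Ptges3 held 2 and Arnt 1, and 4 of the 5 members had a promoter in the table. No match overlapped another. Over 32851 promoters of the same length, 32.4% held the core at least once, 11.1% at least 2 times and 3.91% at least 3 times, so a single match is common and says nothing on its own about binding.

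In build GRCm38 Ahr lies on chromosome 12 (35497974 to 35535038, minus strand), Arnt on chromosome 3 (95434388 to 95497240, plus strand), Ptges3 on chromosome 10 (128058954 to 128077272, plus strand), Ahrr on chromosome 13 (74211118 to 74292331, minus strand) and Tiparp on chromosome 3 (65528410 to 65555518, plus strand). All 5 are protein coding. Ahr overlaps an antisense lincRNA, Gm48236, and Tiparp overlaps an antisense pseudogene transcript, 4931440P22Rik. Arnt overlaps a processed pseudogene on its own strand, Gm42672, and Ptges3 has a processed copy, Ptges3-ps, so reads of these genes could have been shared with the copies.

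After the cell filter the PCB126 library held 1138 cells and the Control library 1858 cells. The PCB126 cells carried 9871419 unique molecular identifiers (UMIs), each standing for 1 captured transcript, and the Control cells 13754218. The median cell had 6567 UMIs in the PCB126 library and 5258.5 in the Control library, with median mitochondrial shares of 12.2% and 7.58%. A cell was given a type when at least 3 of 8 markers of that type had a UMI and led every other type by at least 2 markers, which placed 989 PCB126 cells (86.9%) and 1720 Control cells (92.6%). Of the placed cells of both libraries 95.3% fell in a cluster of the same name when cells were clustered without the receptor pathway's genes. Just inside the gate, with 3 markers or a lead of 2, were 109 PCB126 and 108 Control cells, and 79 and 84 ungated cells missed it by 1 step. The type makeup differed widely. Liver sinusoidal endothelial cells (LSECs) numbered 556 in the PCB126 library and 225 in the Control library, neutrophils 95 and 775, and nonclassical monocytes 0 and 380. A total of 3 barcodes occurred in both libraries, and none of them was a cell.

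Over all cells together the 5 members already differed between the libraries. Ahr had 816 UMIs in PCB126 cells and 583 in Control cells, or 82.7 and 42.4 counts per 1000000 UMIs of the same cells (CPM). Ahrr had 73 UMIs in 54 PCB126 cells and 9 UMIs in 7 Control cells, or 7.40 and 0.654 CPM, 11.3 times higher in the PCB126 library (95% counting interval 5.64 to 25.7). Tiparp went the other way, with 53.9 CPM in PCB126 cells against 112.6 CPM in Control cells. Arnt had 38.4 CPM in PCB126 cells and 28.9 CPM in Control cells, and Ptges3 145 and 122 CPM. These sums mix cell types whose shares differed between the libraries, so each gene is described by type in what follows. All levels are sums of UMIs of a gated type divided by that type's total, and all ratios are PCB126 over Control.

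Ahr was high in endothelial cells and in type 1 conventional dendritic cells (cDC1), which stood below the endothelial types in the PCB126 library and beside them in the Control library, and was low in neutrophils and B cells. In the PCB126 library the order was LSECs with 148.8 CPM (136 to 162), vascular endothelial cells with 138 (95.8 to 193), cDC1 with 68.8 (53.8 to 86.6), cDC2 with 31.8, cholangiocytes with 25.2, T cells with 23.0, B cells with 13.2 and neutrophils with 12.5 CPM. In the Control library it was LSECs with 128 CPM (111 to 148), cDC1 with 119 (91.7 to 151), classical monocytes with 57.3 (40.1 to 79.4), cholangiocytes with 30.0, erythroid barcodes with 15.3, B cells with 14.7, nonclassical monocytes with 9.97, plasma cells with 8.01 and neutrophils with 7.21 CPM. Among neighbours in these orders, the intervals failed to meet only between vascular endothelial cells and cDC1 in the PCB126 library and between cDC1 and classical monocytes in the Control library. The 18 Control vascular endothelial cells, too few for the ordering, had 114 CPM (71.3 to 172).

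At the level of single cells, 261 of 556 PCB126 LSECs (46.9%) and 79 of 225 Control LSECs (35.1%) had an Ahr UMI, and after thinning each cell to 1000 UMIs 13.02% and 9.87% did. In neutrophils 5 of 95 PCB126 cells (5.26%) and 16 of 775 Control cells (2.06%) had one. Barcodes below the cell filter, 1460 with 2063326 UMIs in the PCB126 library and 6252 with 9457963 UMIs in the Control library, are not empty droplets and give an imperfect view of free RNA. They held Ahr at 5.82 CPM (3.01 to 10.2) in the PCB126 library and 1.16 CPM in the Control library. The PCB126 neutrophil level rests on 5 UMIs, and its interval (4.06 to 29.2 CPM) takes in that below-filter level, so it was not read as expression.

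**Figure D1:**
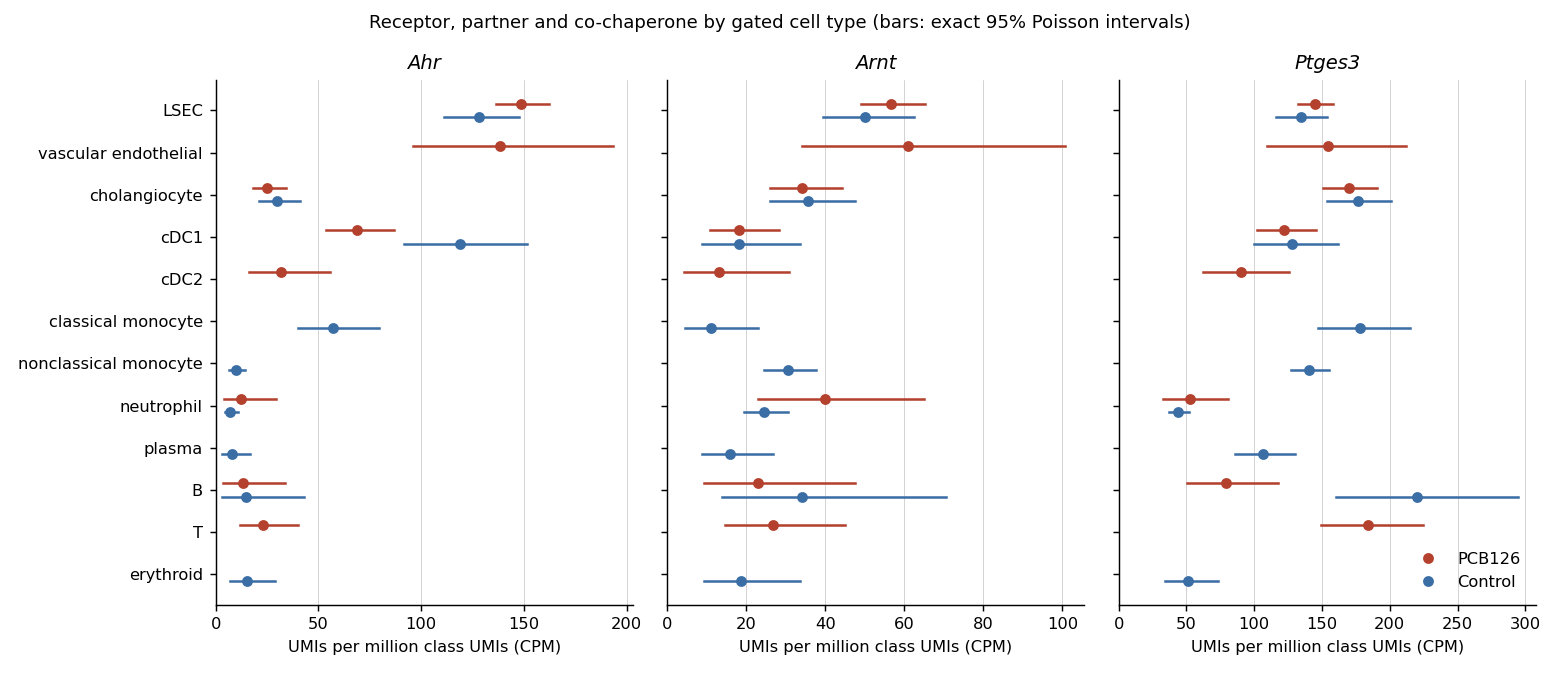
Levels of Ahr, Arnt and Ptges3 (CPM, linear axes) in each gated type with at least 20 cells in a library, PCB126 above Control, with exact Poisson intervals of 95%. Ahr stands at 148.8 CPM in PCB126 and 128 CPM in Control LSECs, with the Control interval meeting that of cDC1, and the Arnt and Ptges3 levels spread over fewer fold between types.

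Between the libraries, the receptor's own transcript differed little in LSECs as a whole. The ratio was 1.16 (0.98 to 1.38) in LSECs and 1.22 (0.69 to 2.18) in vascular endothelial cells. Of 9749 genes with at least 20 UMIs in LSECs, 3.79% were at least 2-fold higher and 4.64% at least 2-fold lower in the PCB126 library, and the median log2 ratio of these genes was -0.02. The LSEC-gated class itself was not uniform, since 107 of 556 PCB126 cells (19.2%) and 60 of 225 Control cells (26.7%) took 20% or more of their endothelial marker UMIs from vascular markers. In the LSEC-gated cells the LSEC markers summed to 8376 CPM in PCB126 and 6781 CPM in Control cells, vascular markers to 1223 and 1372 CPM, and neutrophil markers to 19.2 and 163.8 CPM, with 7 and 8 of the 8 neutrophil markers above 0. Median mitochondrial shares there were 14.4% and 10.5%. The part of these differences in the result was not tested beyond the split that follows.

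Endothelial cells were therefore split, by a rule chosen after the data were seen, into bands of low (under 20%), middle and high (at least 50%) vascular marker share. The bands held 450, 103 and 75 PCB126 cells and 166, 53 and 68 Control cells. They also took in ungated cells with at least 3 markers of an endothelial type and a lead of at least 2 over every other kind. Ungated cells made up 31 of the 75 PCB126 and 37 of the 68 Control cells of the high band, and 1 cell of each low band. In the low band, the most LSEC-like cells, Ahr had 134 CPM (120 to 149) in PCB126 cells and 80.7 CPM (63.6 to 101) in Control cells, a ratio of 1.66 (1.29 to 2.15). In the middle band it had 173 and 198 CPM (ratio 0.87, 0.67 to 1.15), and in the high band 199 and 173 CPM (1.16, 0.90 to 1.48). Control cells thus differed by band more than PCB126 cells did, and the libraries differed beyond counting error in the low band. In this band 5.59% of 9023 genes were at least 2-fold higher and 4.41% at least 2-fold lower, and Ahr was in neither group.

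Clusters, formed without the pathway genes, gave finer steps, and in none of the 4 largest endothelial clusters did the interval of the Ahr ratio lie off 1. The cluster led by Bmp4, Rspo3 and Vwf had Ahr at 221 CPM in 90 PCB126 cells and 217 CPM in 94 Control cells (1.02, 0.84 to 1.24). Cyp1b1 was also among its top genes. The cluster led by Cyp26b1, Kit and Wnt2 had 176 CPM in 202 PCB126 cells and 115 CPM in 20 Control cells (1.53, 0.93 to 2.73), and its top genes also held Cyp1a1. The cluster led by Lyve1, Plpp3 and Clec4g had 109 CPM in 250 PCB126 cells and 72.3 CPM in 17 Control cells (1.50, 0.63 to 4.70), where the Control value rests on 5 UMIs. The cluster led by Igfbp5, Ntn4 and Ednrb had 68.1 CPM in 31 PCB126 cells and 55.1 CPM in 140 Control cells (1.24, 0.64 to 2.25). The smaller and shallow cluster led by Fam167b, Fam124a and Igfbp4 had 9 Ahr UMIs in 49 PCB126 cells and 0 in 33 Control cells, with a ratio interval that began at 1.04. In the 4 clusters given first, receptor level varied more among clusters of 1 library than between libraries within a cluster, and the mix of these clusters differed between the libraries.

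Dendritic cells were the type in which Ahr was lower in the PCB126 library. In cDC1 it had 72 UMIs in 60 PCB126 cells and 65 UMIs in 34 Control cells, or 68.8 and 119 CPM, a ratio of 0.58 (0.41 to 0.82). Of 6279 genes measured in cDC1, 6.88% were at least 2-fold higher and 3.63% at least 2-fold lower, and Ahr was in neither group. The ratio lay below 1 under all 14 alternative settings, between 0.47 and 0.73. The dendritic cluster led by Ccl17, Cd209a and Ccl22, which is not the cDC1 cluster, had Ahr at 41.3 CPM in 78 PCB126 cells and 170 CPM in 21 Control cells (0.24, 0.15 to 0.40). Only 33.3% of its cells were gated as cDC2, a type with 31 PCB126 and 2 Control cells. Whether both libraries gave it the same kinds of cell was not tested. Vascular markers summed to 536 CPM in PCB126 cDC1 and 84.1 CPM in Control cDC1, with 3 and 5 of the 8 markers at 0, cDC1 markers to 3631 and 5454 CPM and classical monocyte markers to 567 and 199 CPM, and their part in the result was not tested. In cholangiocytes, the epithelial cells of bile ducts, Ahr had 25.2 CPM in PCB126 and 30.0 CPM in Control cells (ratio 0.84, 0.53 to 1.34), and in neutrophils the ratio was 1.74 (0.52 to 4.67) from 5 and 23 UMIs.

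Arnt, which also partners hypoxia-inducible factors, was spread more evenly over types than Ahr. In the PCB126 library it ran through vascular endothelial cells (61.0 CPM), LSECs (56.7), neutrophils (40.1), cholangiocytes (34.2), T cells (26.9), B cells (23.0), cDC1 (18.2) and cDC2 (13.2 CPM). In the Control library it ran through LSECs (49.98 CPM), cholangiocytes (35.6), B cells (34.2), nonclassical monocytes (30.6), neutrophils (24.4), erythroid barcodes (18.8), cDC1 (18.3), plasma cells (16.02) and classical monocytes (11.1 CPM). No neighbours in either order differed beyond their intervals, while the ends did. Neutrophils, near the bottom for Ahr, stood in the middle for Arnt, and cDC1, near the top for Ahr, stood near the bottom. The Arnt ratio was 1.13 (0.87 to 1.50) in LSECs, 0.99 (0.44 to 2.39) in cDC1, 0.96 (0.64 to 1.45) in cholangiocytes and 1.64 (0.89 to 2.83) in neutrophils, and it was between 1.04 and 1.19 in the 3 endothelial bands.

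Ptges3 differed by the fewest fold between types, once neutrophils and erythroid barcodes are set aside. In the PCB126 library T cells had 184 CPM, cholangiocytes 169.9, vascular endothelial cells 155, LSECs 145, cDC1 122, cDC2 90.1, B cells 78.9 and neutrophils 52.6 CPM. In the Control library B cells had 220.1 CPM, classical monocytes 178, cholangiocytes 176, nonclassical monocytes 141, LSECs 134, cDC1 128, plasma cells 106, erythroid barcodes 51.1 and neutrophils 43.9 CPM. Neighbours did not differ beyond their intervals, except plasma cells and erythroid barcodes in the Control library. In LSECs the ratio was 1.08 (0.91 to 1.28), in cholangiocytes 0.96 (0.81 to 1.15), in cDC1 0.96 (0.71 to 1.30) and in neutrophils 1.20 (0.72 to 1.90). B cells were the exception, with 78.9 CPM in PCB126 and 220.1 CPM in Control cells (0.36, 0.21 to 0.60), but 19 of the 45 Control UMIs came from 1 cell. With the highest cell of each library left out the levels were 73.3 and 160 CPM (0.46, 0.25 to 0.84). Of 2920 genes measured in B cells, 8.73% were at least 2-fold higher and 11% at least 2-fold lower.

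The repressor genes behaved differently from the receptor and its partners. Tiparp was most abundant in neutrophils, where the interval of its ratio took in 1, while in endothelial cells it was low in Control and higher in PCB126 cells. Neutrophils had 250.3 CPM in the PCB126 library (204 to 304) and 283 CPM in the Control library (264 to 302), with a Tiparp UMI in 39 of 95 (41.1%) and 364 of 775 (47.0%) cells. After thinning the shares were 21.1% and 22.4%. The neutrophil ratio was 0.89 (0.71 to 1.09), and 0.80 (0.63 to 0.99) with the highest cell of each library left out, in a type where 10.8% of 6257 genes were at least 2-fold higher and 9.13% at least 2-fold lower. The largest neutrophil cluster differed between the libraries. An Atf3 and Ccl6 cluster had 50 PCB126 and 8 Control cells (Tiparp ratio 0.68, 0.34 to 1.51). An Il1b and Steap4 cluster had 19 and 337 (0.75, 0.45 to 1.18), the one led by Tnf and Il23a 22 and 269 (1.08, 0.70 to 1.59), and that led by Retnlg and Mmp8 4 and 121.

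In LSECs Tiparp had 195 UMIs in PCB126 cells and 38 UMIs in Control cells, or 56.7 CPM (49.0 to 65.2) and 25.0 CPM (17.7 to 34.3). The ratio was 2.27 (1.60 to 3.30), and the intervals of the levels did not meet. The share of LSECs with a Tiparp UMI was 20.0% in the PCB126 library and 11.6% in the Control library, and 5.61% and 3.14% after thinning. Tiparp was the member past 2-fold in LSECs among the 4 with at least 20 UMIs, where 3.79% of all genes were 2-fold higher. Its ratio lay above 1 under all 14 alternative settings, between 1.76 and 2.69.

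The interval of the Tiparp ratio lay above 1 in each endothelial band, though not in each endothelial cluster. Tiparp had 48.5 CPM in PCB126 and 17.8 CPM in Control cells of the low band (2.72, 1.63 to 4.82), 85.9 and 42.6 CPM in the middle band (2.02, 1.21 to 3.50), and 84.1 and 18.0 CPM in the high band (4.68, 2.54 to 9.31). In the middle band 4.08% of genes were at least 2-fold higher and 4.9% lower, and in the high band 2.53% and 5.33%. The largest level was in the cluster led by Bmp4, Rspo3 and Vwf, with 134 CPM in PCB126 and 31.9 CPM in Control cells (4.21, 2.84 to 6.39). In the Cyp26b1, Kit and Wnt2 cluster there were 81 UMIs in 202 PCB126 cells and 1 UMI in 20 Control cells (8.15, 1.42 to 326), and in the Lyve1, Plpp3 and Clec4g cluster 43 UMIs in 250 PCB126 cells and 0 in 17 Control cells. By contrast, the Igfbp5, Ntn4 and Ednrb cluster, which held 31 PCB126 and 140 Control cells, had 18.2 CPM in PCB126 and 20.6 CPM in Control cells (0.88, 0.22 to 2.67) from 4 and 18 UMIs. The LSEC ratio therefore compares different mixes of these clusters. The gate's own vascular endothelial class was small, with 15 UMIs in 29 PCB126 cells and 1 UMI in 18 Control cells (11.8, 1.82 to 497), where 3.43% of 3524 genes were at least 2-fold higher and 7.86% lower.

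**Figure D2:**
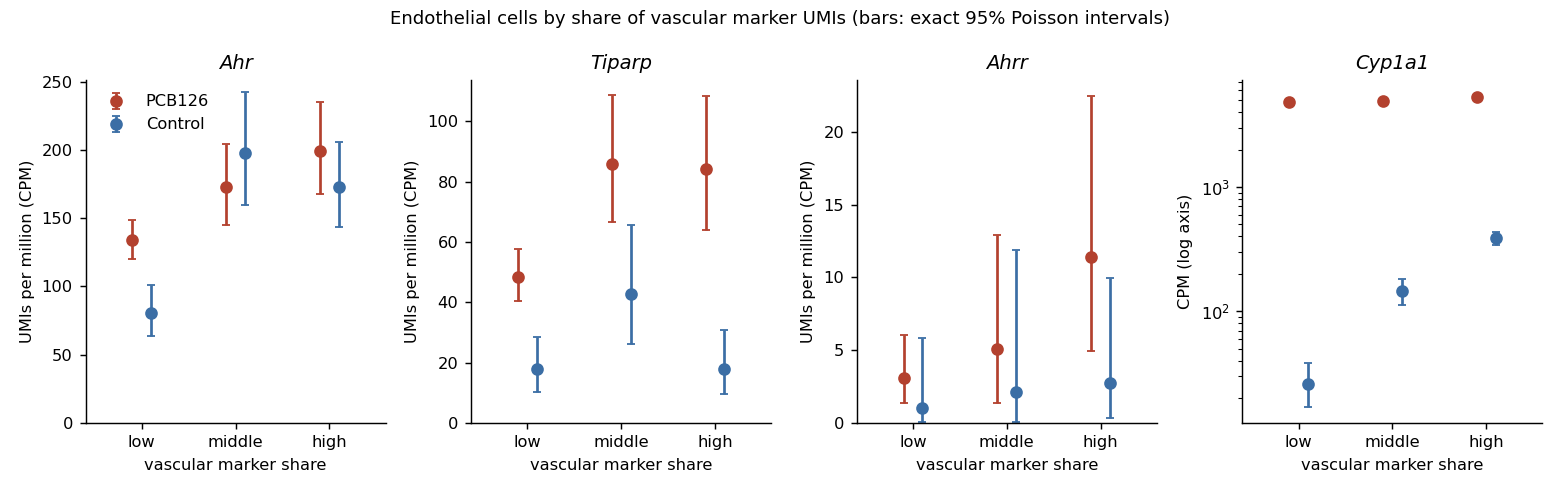
Levels of Ahr, Tiparp, Ahrr (CPM, linear axes) and Cyp1a1 (CPM, log axis) in endothelial cells of low, middle and high vascular marker share, with PCB126 left of Control in each band and exact Poisson intervals of 95%. Tiparp is above the Control level in all 3 bands (48.5 against 17.8 CPM in the low band), whereas the Ahr intervals fail to meet in the low band only, with 134 against 80.7 CPM.

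Outside the endothelium no type compared had a Tiparp ratio whose interval lay above 1. In cholangiocytes it had 30 UMIs in PCB126 and 40 UMIs in Control cells, or 18.0 and 31.6 CPM (0.57, 0.34 to 0.94), in a type where 2.44% of 9850 genes were at least 2-fold higher and 1.71% lower. In cDC1 it had 31.5 and 29.2 CPM (1.08, 0.58 to 2.10). In B cells it had 36.2 CPM in PCB126 and 102.7 CPM in Control cells (0.35, 0.15 to 0.76), but 16 of the 21 Control UMIs came from 1 cell, and with the highest cell of each library left out the levels were 30.2 and 30.7 CPM (0.98, 0.30 to 3.73). T cells had 21.1 CPM from 51 PCB126 cells and 67.2 CPM from 12 Control cells (0.31, 0.12 to 0.90), with 11 and 8 UMIs. In T cells 9.11% of 3886 genes were at least 2-fold higher and 9.14% lower.

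The order of Tiparp levels in the PCB126 library was neutrophils, vascular endothelial cells (61.0 CPM), LSECs (56.7), cDC2 (45.0), B cells (36.2), cDC1 (31.5), T cells (21.1) and cholangiocytes (18.0 CPM), in which neutrophils alone stood apart from their neighbour. In the Control library it was neutrophils, classical monocytes (108 CPM), B cells (102.7), plasma cells (89.2), nonclassical monocytes (82.9), erythroid barcodes (47.7), cholangiocytes (31.6), cDC1 (29.2) and LSECs (25.0 CPM), in which nonclassical monocytes and erythroid barcodes also differed beyond their intervals. The 775 Control neutrophils gave 902 of the 1549 Tiparp UMIs of the Control cells. LSECs gave 36.7% of the Tiparp UMIs of PCB126 cells and 2.45% of those of Control cells, so the lower level over all PCB126 cells went with fewer neutrophils while the level within LSECs was higher.

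**Figure D3:**
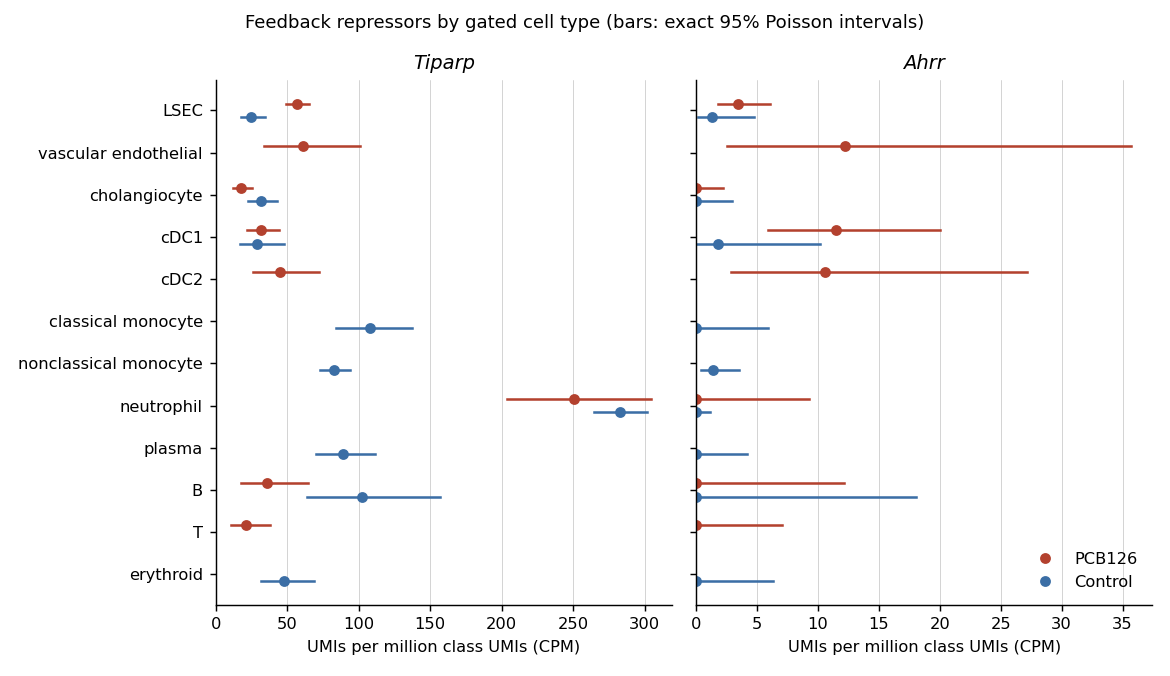
Levels of Tiparp and Ahrr (CPM, linear axes) in each gated type with at least 20 cells in a library, PCB126 above Control, with exact Poisson intervals of 95%. Tiparp peaks in neutrophils at 250.3 CPM in PCB126 and 283 CPM in Control cells, and the Ahrr points of LSECs and cDC1 are higher in PCB126 cells with intervals that meet.

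Ahrr, known in mice from immune cells of barrier tissues, was rare in every type, and most of its UMIs in the PCB126 library did not come from LSECs. In LSECs it had 12 UMIs in PCB126 cells and 2 in Control cells, or 3.49 and 1.32 CPM (2.65, 0.59 to 24.4). In cDC1 it had 12 UMIs in 8 of 60 PCB126 cells and 1 UMI in 34 Control cells, or 11.5 and 1.83 CPM (6.27, 0.93 to 268). The PCB126 cDC2 had 4 UMIs in 31 cells (10.6 CPM), and the vascular endothelial class had 3 UMIs in PCB126 and 0 in Control cells. No Ahrr UMI was seen in 83 PCB126 and 69 Control cholangiocytes, nor in 95 PCB126 and 775 Control neutrophils, which allows up to 1.80 and 2.37 CPM in cholangiocytes and up to 7.51 and 0.94 CPM in neutrophils. B and T cells also had none. The 7 remaining UMIs of gated PCB126 cells lay in small types, 3 in 7 classical monocytes, 2 in 4 C1q macrophages and 2 in 11 NK cells. The Control nonclassical monocytes had 4 UMIs in 380 cells (1.38 CPM).

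The ungated cells held 35 of the 73 Ahrr UMIs of the PCB126 library, in 23 of 149 cells (23.2 CPM), against 2 UMIs in 138 Control cells (1.21 CPM). Of the 35, 9 lay in 7 of the 19 ungated PCB126 cells with most markers of classical monocytes. Another 8 lay in 5 of the 13 with most markers of cDC2, and no other type had more than 6. Clusters were also read, over gated and ungated cells together. The cluster led by Ccl17, Cd209a and Ccl22 had 23 Ahrr UMIs in 15 of 78 PCB126 cells and 0 UMIs in 21 Control cells. The cluster led by C1qb, C1qa and C1qc, complement genes of macrophages, had 16 UMIs in 12 of 42 PCB126 cells and 0 in 6 Control cells. The cDC1 cluster had 7 UMIs in PCB126 and 1 in Control cells, and the Bmp4, Rspo3 and Vwf endothelial cluster 11 and 1. The cluster led by Prtn3, Mpo and Elane had 4 UMIs in 2 of 11 PCB126 cells and 0 in 62 Control cells.

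Taking the dendritic and macrophage clusters together, a grouping made after the counts were seen, 32 of 172 PCB126 cells (18.6%) and 1 of 61 Control cells (1.64%) had an Ahrr UMI, at 20.0 and 1.28 CPM. The makeup of this group differed, since its cDC1 cluster gave 52 of the PCB126 and 34 of the Control cells, and the clusters without a Control UMI gave 78 and 42 PCB126 cells and 21 and 6 Control cells. Together these clusters held 63.0% of the Ahrr UMIs of the PCB126 cells. Median depth was 12967 UMIs per cell in the PCB126 and 14059 in the Control cells of these clusters. Endothelial clusters had 20 Ahrr UMIs in 637 PCB126 cells and 4 in 308 Control cells, or 4.91 and 1.80 CPM, at median depths of 5994 and 6426 UMIs. All other clusters, whose mix of types differed between the libraries, had 7 UMIs in 329 PCB126 and 4 in 1489 Control cells. Their levels were 2.00 and 0.372 CPM (5.38, 1.37 to 25.1). Along the bands from low to high vascular share Ahrr had 3.08, 5.05 and 11.4 CPM in PCB126 and 1.05, 2.13 and 2.76 CPM in Control cells, from at most 8 and 2 UMIs a band. In the below-filter barcodes Ahrr stood at 1.45 CPM (3 UMIs) in the PCB126 library and had no UMI in the Control library.

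Set beside the response, both endothelial types had high levels of the receptor and of Cyp1a1 in the PCB126 library, while cDC1 had the receptor and little Cyp1a1. Cyp1a1, the monooxygenase gene that serves as the standard readout of the receptor, had 4913 CPM in PCB126 LSECs and 84.2 CPM in Control LSECs (58.4, 49.0 to 70.0), and 4739 and 626 CPM in vascular endothelial cells (7.57, 6.28 to 9.21). Along the endothelial bands from low to high vascular share, Cyp1a1 had 4839, 4955 and 5288 CPM in PCB126 cells and 26.2, 145 and 387 CPM in Control cells. The Cyp1a1 ratio thus ran down along the bands, with 185, 34.2 and 13.7, while PCB126 Ahr ran up, with 134, 173 and 199 CPM. In cDC1, with Ahr at 68.8 CPM in PCB126 and 119 CPM in Control cells, it had 3 UMIs in 60 PCB126 cells (2.87 CPM) and 0 in 34 Control cells. Cholangiocytes, with less Ahr than cDC1, had 121 Cyp1a1 UMIs in 18 of 83 PCB126 cells and 0 in 69 Control cells. Their Cyp1a1 level in the PCB126 library was 72.6 CPM, with up to 33 UMIs in a cell. The cholangiocyte ratio was 30.6 against a floor of 3 counts over the Control cells. The exact counting interval of this ratio, taken with 0 Control UMIs, began at 24.5. PCB126 T cells had 32.6 CPM and neutrophils 22.5 CPM, and PCB126 B cells had no UMI. Some clusters outside the endothelium, which take in ungated cells, stood above cholangiocytes in the PCB126 library. The cluster led by Jchain, Igkc and Igha had 69 UMIs in 2 of 6 cells (417 CPM). That led by Prtn3, Mpo and Elane had 49 in 3 of 11 (194 CPM), and that led by C1qb, C1qa and C1qc 57 in 7 of 42 (139 CPM). Control cells of these clusters had 0 Cyp1a1 UMIs. The below-filter barcodes held Cyp1a1 at 184 CPM in the PCB126 and 1.37 CPM in the Control library. By hemoglobin content, such material made up 0.027% of the UMIs of PCB126 cholangiocytes and 0.23% of those of PCB126 neutrophils. That estimate follows hemoglobin alone and does not measure endothelial RNA. The LSEC markers summed to 35.4 CPM in PCB126 cholangiocytes, 24.9 CPM in T cells and 118 CPM in neutrophils, beside 8376 CPM in PCB126 LSECs. In PCB126 B cells, without a Cyp1a1 UMI, they summed to 132 CPM. Control cells of these types, in the same order without LSECs, had 22.1, 8.40, 48.3 and 147 CPM. Whether free RNA or remaining doublets had a part in the cholangiocyte, T cell, neutrophil and cluster values was not tested further.

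**Figure D4:**
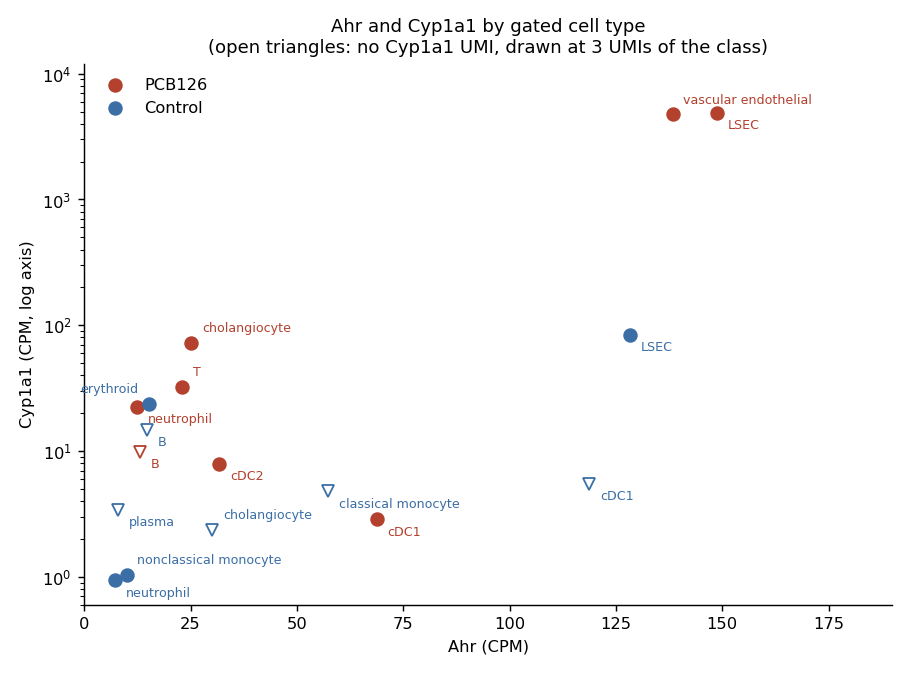
Cyp1a1 level (CPM, log axis) against Ahr level (CPM, linear axis) for each gated type with at least 20 cells, PCB126 and Control libraries in different colours, with open triangles at the level of 3 UMIs where no Cyp1a1 UMI was found. The PCB126 endothelial types stand at 4739 and 4913 CPM of Cyp1a1, while PCB126 cDC1 stands at 68.8 CPM of Ahr and 2.87 CPM of Cyp1a1.

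Over the 8 gated types of the PCB126 library, log2(CPM + 10) of Ahr and of Cyp1a1 had a Pearson r of 0.81 and a Spearman rho of 0.55. Without LSECs and vascular endothelial cells, the 2 types farthest from the median of Ahr, r was -0.20 over 6 types, so the relation rests on the endothelium. For Ahr and Tiparp r was -0.07. For Ahr and Ahrr r was 0.66 and rho 0.79, and r was 0.82 without the endothelial types, but Ahrr had at most 12 UMIs in a type and 0 in 4 of the 8. These points share a library, its free RNA and unequal depth, and the values are a description. Both endothelial types also had the highest Arnt levels of the PCB126 library, with 56.7 CPM in LSECs and 61.0 CPM in vascular endothelial cells. For Arnt and Cyp1a1 in that library r was 0.87 and rho 0.81. Without cDC2 and vascular endothelial cells, the 2 types farthest from the median of Arnt, r was 0.87 over 6 types, LSECs among them. Over 9 types of the Control library r with Cyp1a1 was 0.42 for Ahr (rho 0.07) and 0.48 for Arnt (rho 0.42).

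Within PCB126 LSECs thinned to 2000 UMIs, the 114 cells with an Ahr UMI had a median of 11 Cyp1a1 UMIs and the 424 cells without one had 8.5. The 48 cells with a Tiparp UMI had 12 and the 490 cells without one 9. Nearly all cells had Cyp1a1 in either case, 99.1% of those with an Ahr UMI and 96.0% of those without. Ahr and Tiparp were both seen in 11 of 538 cells. A single UMI says little about a cell's level at this depth, and these cells come from 1 mouse.

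The other genes of the pathway, in lists drawn up with earlier results of these data known, were read against the same background in LSECs. None of the 5 measured genes of the chaperone complex and receptor turnover (median log2 -0.15) was past 2-fold. Cul4b, a ubiquitin ligase scaffold, had the lowest ratio of them, 0.85 (0.61 to 1.21). None of the 3 measured alternative bHLH-PAS partners (median -0.21) was past 2-fold, with Epas1 at 1.05 (0.97 to 1.14) and Hif1a, the hypoxia-inducible factor subunit, at 85.1 and 120 CPM and a ratio of 0.71 (0.59 to 0.86). Of 8 coregulators (median 0.02) 1 was at least 2-fold higher. This was the coactivator gene Ncoa3, with 217 CPM in PCB126 and 104 CPM in Control cells (2.09, 1.76 to 2.50).

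Of the 4 measured response genes (median 1.08), 2 were at least 2-fold higher in LSECs. These were Cyp1a1 and Nqo1, a quinone reductase, which had 99.4 CPM in PCB126 and 28.9 CPM in Control cells (3.43, 2.50 to 4.81). Cyp1b1 had 195 and 149 CPM (1.31, 1.13 to 1.53) and Xdh, the xanthine dehydrogenase gene, 177 and 185 CPM (0.96, 0.83 to 1.11). None of the 4 ligand supply genes reached 20 UMIs. The 4 members measured in LSECs had a median log2 ratio of 0.19, against -0.02 over all genes.

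In the smaller vascular endothelial class 4 of the 5 chaperone and turnover genes were measured (median log2 0.07) and none was past 2-fold, from Hsp90aa1 at 0.74 (0.49 to 1.12) to Stub1 at 1.31 (0.54 to 3.40). Among 3 bHLH-PAS partners Arntl was past 2-fold, at 2.36 (0.90 to 7.26) from 18 and 6 UMIs, and Hif1a was lowest at 0.69 (0.32 to 1.48). None of 5 coregulators was past 2-fold, from Ep300 at 0.82 (0.45 to 1.48) to Nrip1 at 1.47 (0.85 to 2.58). Of 4 response genes 3 were at least 2-fold higher, with Cyp1b1 at 2.62 (2.00 to 3.47) and Nqo1 at 2.31 (1.29 to 4.37), and Xdh was lowest at 1.45 (0.81 to 2.68). The 3 members with 20 UMIs there, Ahr, Arnt and Ptges3, had a median of 0.27, against -0.09 over all genes.

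**Figure D5:**
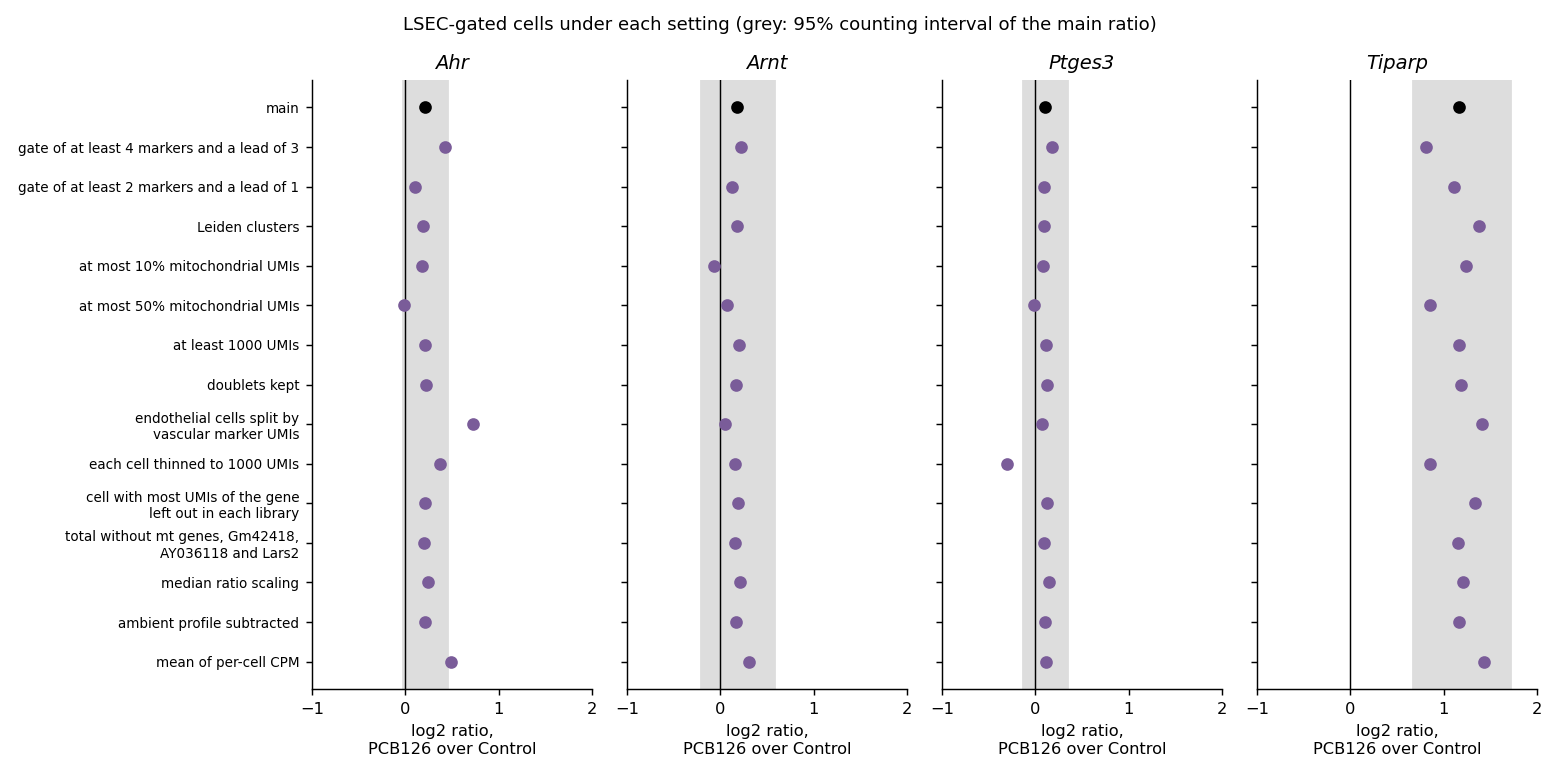
Log2 ratio of PCB126 over Control in LSEC-gated cells for Ahr, Arnt, Ptges3 and Tiparp under the reported setting (black) and each alternative (purple), with the counting interval of the reported ratio in grey. All Tiparp points lie above 0, from 0.81 to 1.43, and the Ahr points run from -0.01 to 0.72.

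The genes most like each member over the 11 type-by-library groups of at least 50 cells were sought among 5372 genes, by Pearson r of log2(CPM + 10). For Ahr they were Sema4c (0.98), Fam102b (0.98), Dpp4 (0.96), Dpagt1 (0.95) and Ece1 (0.95). Calm2 (0.94), Elf2, Tmf1, Sptlc2 and Tmem140 (0.92) were nearest to Arnt. Ptges3 was nearest to Mrps9 (0.98), Cldnd1, Szrd1, Psmc3 and Selenof (0.97). The list for Tiparp was Atf4 (0.94), Clec4a2, Ltf, Gm26532 and Gm14548 (0.92). Ahrr had too few UMIs for the ranking, which rests on 11 groups sharing 2 libraries.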

How the data were processed

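Droplet 3′ single-cell RNA-seq of 2 livers was used, 1 library per group. The deposited matrices hold raw UMI counts, which the authors left unnormalized. The deposited gene and barcode lists hold other content, namely identifiers in matrix order. Per the file headers Cell Ranger 6.0.0 wrote the matrices, while Seurat 4.0.1 and Cell Ranger 6.1.1 stand in the submitters' processing notes. Per the labels' protocols hepatocytes were removed by low-speed spins and a 30 µm strainer, red cells were lysed, and 6000 cells were targeted. The sources used here give no build or annotation, nor how antisense or shared reads were counted. Of 34244 gene identifiers 34049 occur in GENCODE M21 (GRCm38), from which positions came.

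The PCB126 matrix held 4307 barcodes and 16269562 UMIs, the Control matrix 8550 and 24134912. Cells had at least 500 UMIs, at least 250 genes and at most 20% mitochondrial UMIs, which left 1149 and 1886. A further 1698 PCB126 and 412 Control barcodes failed on mitochondrial share alone. The highest Scrublet scores were removed at 0.8% per 1000 barcodes, 11 and 28 cells. Types came from 16 lists of 8 markers. Barcodes with at least 10% hemoglobin UMIs were called erythroid first. Leiden clusters (2000 variable genes, 30 components, 15 neighbours, resolution 1; 22 clusters) were an alternative. Levels were given for types of at least 20 cells, ratios for at least 10 cells in each library. Intervals of 95% were exact (Poisson for a count, Clopper-Pearson for a share, conditional binomial for a ratio). A count of 0 allows 3 counts, and 0.5 counts were added for log2 ratios. No test was made and no p-value is given. The steps were tested on simulated data. Named genes were the members, the response genes Cyp1a1, Cyp1b1 and Nqo1, the highest and lowest ratio of each pathway list, and the 5 genes most like each member; some results under this rule are not reported here. The members, lists, markers and tests were chosen with earlier results of these data known. Python 3.11.15, scanpy 1.11.5, scipy 1.17.1, numpy 2.4.6, pandas 2.3.3, igraph 0.11.9, scikit-learn 1.9.0 and matplotlib 3.10.9 were used.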

Additional observations from a re-analysis of the deposited data

Results flagged for a closer look

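The ratio of PCB126 over Control for Tiparp lay above 1 in LSECs (2.27) and below 1 in 2 other types with at least 20 UMIs, with intervals on either side of 1. In T cells, with 11 and 8 UMIs, it was below 1 as well (0.31, 0.12 to 0.90). The LSEC ratio was 6.44 times that of B cells (0.35) and 3.98 times that of cholangiocytes (0.57). These differences between types were not tested, since each group is 1 library. The B cell value rests on 1 Control cell with 16 of the 21 UMIs, and with the highest cell of each library left out the B cell ratio was 0.98. The cholangiocyte ratio stayed below 1 under all 14 alternatives, between 0.40 and 0.61.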

How the results depend on the processing

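The 22 member ratios in 6 cell types were recomputed under up to 14 alternatives each, 2 of them (the endothelial split and leaving out the highest cell) chosen after seeing the data. Of 307 values 288 stayed within the counting interval of the reported ratio, 16 left it, and 3 turned a ratio whose interval lay off 1 to the other side. In all, 35 values had the other sign than the reported one, all but those 3 where the reported interval took in 1. In LSECs the log2 ratio of Ahr (0.21) was 0.72 in the low vascular band and 0.49 as a mean of per-cell CPM, and -0.01 with up to 50% mitochondrial UMIs. That of Ptges3 (0.11) was -0.30 when cells were thinned to 1000 UMIs. In vascular endothelial cells Ahr (0.27) was -0.69 after thinning, and Tiparp (3.02) was -0.016 in Leiden clusters, which left 4 UMIs in 15 PCB126 cells and 1 UMI in 4 Control cells, a ratio of 1.32 before the added 0.5 counts. Tiparp in B cells (-1.48) was 0.32 in Leiden clusters and 0.13 with at most 10% mitochondrial UMIs. The cause of these shifts was not tested. In LSECs 8.42% of genes were past 2-fold in either direction, and 22.5% with all genes that had a UMI. No paired analysis was possible because each group has 1 library and no value comes from a test. Ahrr had under 20 UMIs in every gated type and is not in these counts; with the highest cell of each library left out it had 10 UMIs in PCB126 and 1 in Control LSECs, and 9 and 0 in cDC1. Hemoglobin made up 21.1% of the PCB126 and 54.6% of the Control free RNA profile, by which the subtracted amount was set, so the subtraction took under 0.5% of any class and tests little.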
